A study of Mus musculus with 90 samples.

Results

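Platelet alpha granules are storage vesicles whose protein cargo is released when a platelet is activated, and 10 genes for such cargo are described here across single cultured blood stem cells. They are Pf4, Ppbp, Thbs1, F13a1, Clu, Timp3, Srgn, Vwf, Sparc and F5, chosen by symbol as known alpha-granule contents, and all 10 were found among the 35869 gene symbols of the deposited tables. The study asked how loss of RUNX1, a transcription factor of blood development, changes what stem cells primed for the megakaryocyte fate become. CD41-positive hematopoietic stem cells were sorted from mouse bone marrow, kept in culture for 2 days and picked as megakaryocyte-like (MK) or non-megakaryocyte-like (NMK) cells, and 1 SMART-Seq library, a full-length RNA method, was made from each picked cell.

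The knockout (KO) libraries came from mice labelled MxCre1+/-,RUNX1f/f and the wild-type (WT) libraries from mice labelled MxCre1-/-,RUNX1f/f, so the controls also carried the floxed Runx1 alleles. Mice of both genotypes received 4 injections of poly(I:C), an interferon inducer that switches on the Mx1 promoter driving Cre, and were used 4 weeks after injection. This promoter acts in many tissues besides blood cells, so deletion need not be limited to stem cells. The labels give no age and name no animal or culture. After removal of outliers by the authors, 33 libraries remained: 6 WT and 5 KO cells of the MK kind, and 9 WT and 13 KO cells of the NMK kind. A group therefore counts as 1 sample: differences are set beside the SD between cells, no test across mice is possible, and none was run.

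Megakaryocytes are the large marrow cells that shed platelets, and they load alpha granules in advance, partly with proteins they make themselves and partly with proteins taken up from plasma. The cargo they make includes chemokines, adhesive proteins, coagulation factors and inhibitors of proteases, and release of these at a wound supports clotting and repair. Transcripts of such genes rise as a megakaryocyte matures, and Pf4 is widely used as a marker of the lineage. RUNX1, GATA and ETS factors are known regulators of megakaryocyte genes.

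Pf4 (platelet factor 4, or CXCL4) and Ppbp (pro-platelet basic protein, or CXCL7) are neighbouring CXC chemokine genes. In the GENCODE M21 annotation of GRCm38, Ppbp lies on chromosome 5 at 90768518 to 90770063 and Pf4 at 90772435 to 90773383, both on the plus strand, with 2371 bp between them. Their promoters are shown because the ratio of these 2 transcripts is followed cell by cell in the results. The F5 promoter is shown as an example of 3 that hold a RUNX match. Each is 300 bases from RefSeq (GRCm38.p6), plus strand, running from 250 bases before the first base of the gene, and capitals mark matches to RUNX, GATA or ETS motifs.
Pf4, chr5:90772185-90772484: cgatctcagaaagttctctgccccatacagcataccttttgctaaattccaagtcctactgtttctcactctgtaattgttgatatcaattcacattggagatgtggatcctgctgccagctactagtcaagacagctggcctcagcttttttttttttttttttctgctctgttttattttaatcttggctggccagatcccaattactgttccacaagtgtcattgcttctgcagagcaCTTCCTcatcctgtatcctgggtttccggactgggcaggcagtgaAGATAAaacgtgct
Ppbp, chr5:90768268-90768567: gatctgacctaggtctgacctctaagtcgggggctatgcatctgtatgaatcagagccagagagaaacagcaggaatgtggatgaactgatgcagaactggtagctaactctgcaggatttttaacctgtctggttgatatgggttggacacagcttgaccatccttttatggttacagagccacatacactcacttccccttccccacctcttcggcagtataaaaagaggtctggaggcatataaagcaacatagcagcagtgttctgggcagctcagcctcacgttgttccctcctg
F5, chr1:164151585-164151884: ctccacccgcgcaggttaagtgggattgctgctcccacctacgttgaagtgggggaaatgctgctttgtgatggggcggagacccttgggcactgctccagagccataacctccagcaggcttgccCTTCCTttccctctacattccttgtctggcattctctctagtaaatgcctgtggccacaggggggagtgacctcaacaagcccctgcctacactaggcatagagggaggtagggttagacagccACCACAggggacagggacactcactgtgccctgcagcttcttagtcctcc

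The motifs searched on both strands were TGTGGT for RUNX factors, AGATAA or TGATAA for GATA factors, the letters AGGAAG or CGGAAG for ETS factors and TGACAG for MEIS factors. With the first base of the gene as 0, the Pf4 promoter held an ETS match on the minus strand at -9 to -4 and a GATA match at 36 to 41. The F5 promoter held a RUNX match on the minus strand at 0 to 5 and an ETS match at -124 to -119. In the Ppbp window none of these letters were found. RefSeq promoters were matched for 7 of the 10 genes, 9 promoters in all, and not for Thbs1, Clu or Vwf. Of the 9, 3 held a RUNX match, against 16.8% of all 32851 promoters. These were the promoters of F5 and Sparc and a promoter of Srgn. An ETS match was in 6 of 9 (46.5% of all), a GATA match in 1 of 9 (18.6%) and a MEIS match in 2 of 9 (19.2%). In a promoter of F13a1, an ETS and a MEIS match overlap. These matches describe the letters in each window and are not evidence of binding.

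Values are TPM, a transcript abundance, and are scaled for gene length and have the same total in every library, so read depth is unknown. Genes above 0 numbered 14089 to 15252 in WT MK and 11896 to 14487 in KO MK cells, and 5475 to 11715 in WT NMK and 3011 to 10987 in KO NMK cells. A score of 14 housekeeping genes, their mean log2(TPM + 1), was under 6 in 2 of the libraries kept, both KO NMK: B1-1b, in which mitochondrial genes took 91.6% of TPM, and B1-2a, with the fewest genes above 0. The 5 WT MK libraries without the title prefix B1 were very alike, with Pearson r of 0.972 to 0.981 over their 10 pairs on the log2(TPM + 1) scale across genes, against 0.934 to 0.948 with WT MK B1-1. Whether they came from separate cells was not tested. Runx1 itself was at 7.6 to 22.2 TPM in WT MK and 8.9 to 47.5 TPM in KO MK cells. These values cover the whole gene and cannot show loss of the floxed part, so WT and KO stand for libraries labelled so.

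In WT cells, 7 of the 10 cargo transcripts were at least 2-fold higher in the MK cells than in the NMK cells, and none was 2-fold lower. The 2-fold limit is a difference of 1 in mean log2(TPM + 1). By the same limit, among 11562 genes whose mean reached 1 TPM in at least 1 of the groups, as it did for 8 of the 10, 37.4% were higher and 5.22% lower. The median difference of the 10 genes was 2.15 on the log2 scale, against 0.70 for all those genes. For 4 genes, Pf4, Thbs1, Timp3 and Vwf, every WT MK cell lay above every WT NMK cell, as was so for 4.58% of genes. All 10 genes took 1.67% ± 0.281 of total TPM in WT MK cells (SD, n = 6 cells) and 0.0692% ± 0.0526 in WT NMK cells (SD, n = 9 cells). How much RNA each cell held is unknown. The panels of values by group show these 4 separated genes beside Srgn and Sparc, whose groups overlap.

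**Figure D1:**
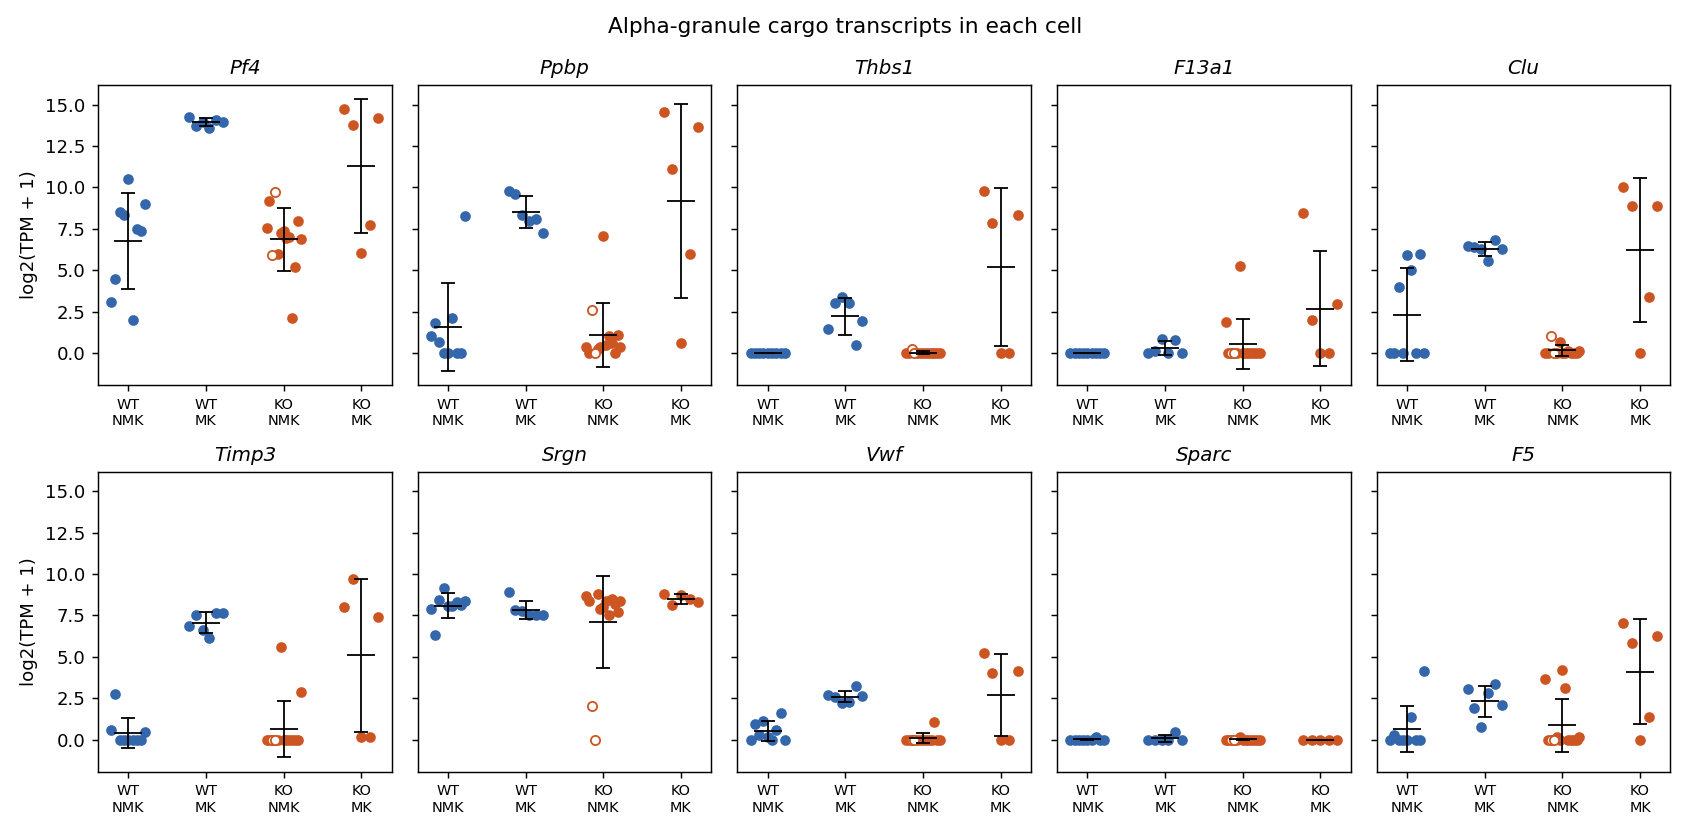
Each point is 1 cell, with log2(TPM + 1) on the vertical axis and the 4 groups on the horizontal axis of each gene's panel; the bars give the mean and SD over cells, and open points mark the 2 KO NMK libraries with a housekeeping score under 6. The 6 WT MK cells form tight groups for Pf4, Clu and Timp3, while the 5 KO MK cells spread over most of the axis, with 3 high and 2 low.

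In KO cells, 9 of the 10 transcripts were at least 2-fold higher in MK than in NMK cells, against 34.2% of 13365 genes. None was 2-fold lower, against 3.84%, and the median difference was 3.83 against 0.59. Sparc was the exception. Srgn, among the 9, was 1.39 higher (pooled SD 2.39). In KO NMK it was at 3.1 TPM in B1-1b and 0 in B1-2a, the libraries of low housekeeping score. With each cell left out the Srgn difference was 0.80 to 1.53, and the count was 8 or 9. No gene of the 10 separated these 2 groups cell by cell, as 0.299% of genes did. Of the 5 KO MK cells, 1B, B1-3 and 1A had high cargo transcripts and B1-4 and 2 had low ones. The share of total TPM taken by the 10 genes was 5.39% in KO MK 1B, 3.31% in 1A, 1.79% in B1-3, 0.0647% in 2 and 0.0501% in B1-4. The last pair lay within the range of WT NMK cells, 0.0109% to 0.179%. These 2 cells also differed in other markers. The 10 megakaryocyte markers summed to 43.4 TPM in KO MK 2 and 50.2 TPM in B1-4, against 1721.1 to 3430.4 TPM in KO MK 1A, B1-3 and 1B and 280.8 to 1205.3 TPM in WT MK cells. The 10 stem and progenitor markers summed to 916.6 TPM in KO MK 2 and 1608.3 TPM in B1-4. They summed to 282.2 to 677.9 TPM in the other 3 and to 83.5 to 174.1 TPM in WT MK cells. Ly6a (the stem cell antigen Sca-1) was at 342.2 TPM in KO MK 2 and 199.0 TPM in B1-4 and at 0 to 0.1 TPM in the others. Hoxa9 and Procr of the same list were also higher in KO MK 2 and B1-4, but Slamf1 went the other way. It was at 309.8 TPM in 1B, 133.5 in B1-3 and 47.2 in 1A, against 27.9 in B1-4 and 5.9 in 2. Markers of other lineages were mixed: in KO MK cells erythroid markers summed to 0.2 to 1848.5 TPM, granulocyte markers to 0 to 91.2 TPM and mast cell markers to 0 to 14.6 TPM, and in WT MK cells to 16.4 to 179.7, 2.8 to 11.8 and 2.6 to 93.1 TPM. Their part in the cargo values was not tested. The MK label goes with the megakaryocyte markers in 3 of 5 KO MK cells and goes against them in 2. Comparisons of KO MK cells below include all 5, except where a cell is said to be left out and in ratios to Pf4. Those ratios lack the cells in which the gene is at 0. Values are given cell by cell, since a mean over a subset of KO MK cells chooses cells by the transcripts measured. The mean ratios to Pf4 of genes at 0 in some cells have this limit.

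**Figure D2:**
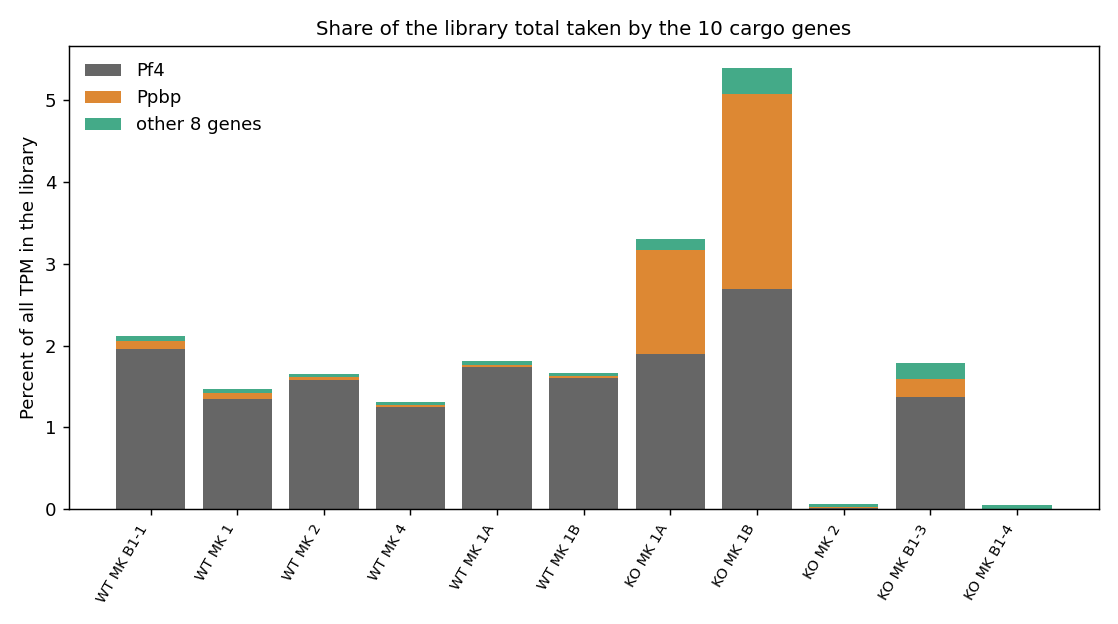
Stacked bars give the percent of all TPM in each MK library taken by Pf4, by Ppbp and by the other 8 cargo genes. Pf4 fills most of every WT MK bar, Ppbp fills 44.3% of the KO MK 1B bar, and the bars of KO MK 2 and B1-4 are near 0.

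When KO MK cells were set against WT MK cells, group means hid a split between cells. In KO MK 1B, 8 of the 10 transcripts lay above the whole WT MK range, in B1-3 7 and in 1A 6. The rest lay within it. In KO MK 2, 6 lay below the range and 4 within, and in B1-4 7 lay below and 3 within. The genes with 3 KO MK cells above every WT MK cell were Ppbp, Thbs1, F13a1, Clu, Vwf and F5, 6 of 10, against 23.9% of 11796 genes. This count was chosen after the values were seen. With the further condition that the 3 cells be at 2 or more times the highest WT MK cell, the same genes except Vwf remained, 5 of 10, against 5.52% of genes. On group means, 3 of the 10 were at least 2-fold higher in KO MK (12.4% of genes) and 2 lower (9.27%), with a median difference of 0.37 against 0.09. Without KO MK B1-4, 5 were higher.

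**Figure D3:**
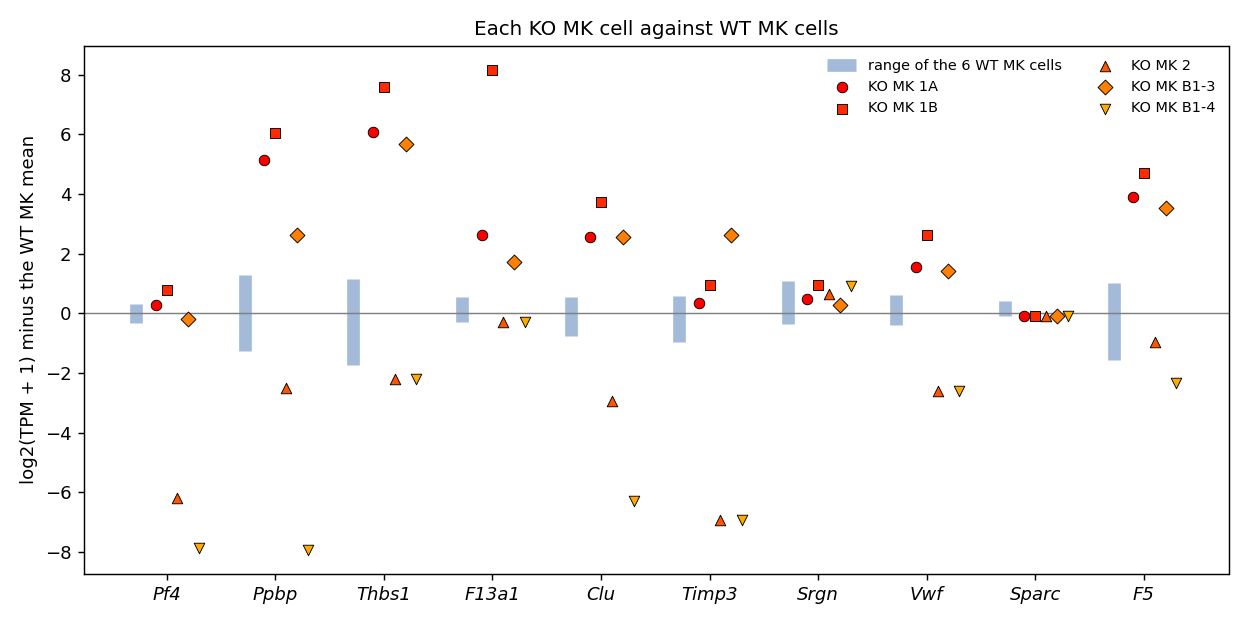
For each gene, symbols give log2(TPM + 1) in each of the 5 KO MK cells minus the mean of the 6 WT MK cells, and the blue bar gives the range of those WT MK cells around the same mean. KO MK 1B, 1A and B1-3 lie above the bar for Ppbp, Thbs1, F13a1, Clu, Vwf and F5, whereas KO MK 2 and B1-4 lie below it for Pf4, Ppbp, Thbs1, Clu, Timp3 and Vwf.

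Pf4, a heparin-binding chemokine, was the most abundant transcript in 5 of the 6 WT MK cells and the second in WT MK 1A. Its level in WT MK cells was lowest at 12512.8, had a median of 15938.6 and was highest at 19618.6 TPM. In WT NMK cells it ran from 3.0 to 1453.1 TPM with a median of 174.8 TPM, so the groups did not overlap and the difference was 7.20 on the log2 scale (pooled SD 2.28). Pf4 was above 1 TPM in every kept cell of all 4 groups. In KO MK cells it was 26884.7 TPM in 1B, 18922.2 in 1A, 13751.7 in B1-3, 213.7 in 2 and 65.8 in B1-4. The first of these lay above the WT MK range, the next pair within it, and the last pair far below, within the range of KO NMK cells (3.4 to 841.3 TPM, median 125.7). The group difference between KO MK and WT MK was -2.64 with a pooled SD of 2.72, smaller than the spread between cells.

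Ppbp encodes a precursor that is cut into several chemokines, among them the neutrophil attractant NAP-2. In WT MK cells it ran from 152.1 to 882.2 TPM with a median of 298.5 TPM, and its rank among all genes was 199 at best. Among WT NMK cells, 8 of 9 were at 3.3 TPM or less and WT NMK 4B was at 313.8 TPM, inside the WT MK range. Among KO MK cells Ppbp was 23854.3 TPM in 1B, 12777.5 in 1A, 2218.8 in B1-3, 63.2 in 2 and 0.5 in B1-4. The first 3 lay above every WT MK cell, and Ppbp had rank 2 among all genes in 1B and rank 4 in 1A. The mean TPM was 7783 in KO MK and 441 in WT MK cells, 17.7 times higher, but the difference in mean log2(TPM + 1) was 0.67 with a pooled SD of 3.96 because the other 2 cells lay below the WT range. In KO NMK cells Ppbp had a median of 0.3 TPM and a highest value of 133.0 TPM, in 1A.

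The ratio of Ppbp to Pf4 within a cell does not depend on the library total. In the 6 WT MK cells it was 0.00945 in 1B, 0.0159 in 1A, 0.0198 in 4, 0.0203 in 2, 0.045 in B1-1 and 0.0568 in 1. The KO MK ratios were 0.887 in 1B, 0.675 in 1A, 0.296 in 2, 0.161 in B1-3 and 0.0076 in B1-4. Thus 4 of the 5 KO MK cells lay above the highest WT MK cell, KO MK 2 among them although its Pf4 and Ppbp were both low. The ratio in B1-4 rests on Ppbp at 0.5 TPM. The mean log2 ratio was 3.0 higher in KO MK (pooled SD 1.97), a geometric mean 7.99 times higher, and it was 4.15 higher without KO MK B1-4. With the 5 alike WT MK libraries averaged into 1, the difference was 2.51. The sum of Ppbp over the sum of Pf4 was 0.650 in KO MK and 0.0279 in WT MK cells. Pf4 made up 91.3% to 96.3% of the summed cargo TPM in WT MK cells, and 49.9% in KO MK 1B, 57.2% in 1A and 77.0% in B1-3.

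The 9 MK libraries that the authors left out of the second table were on the same sides. In the 4 left-out KO MK libraries the ratio was 1.05 in B1-1, 0.460 in B1-1b, 0.362 in 1 and 0.270 in B1-1a, each above every WT MK cell. In the left-out WT MK libraries with both genes above 0 it was 0.0120 in B1-2a, 0.00724 in B1-1a and 0.00714 in B1-2b, and Ppbp was listed at 0 in the other 2. Of these 9 libraries, 7 had a housekeeping score under 6. The exceptions were KO MK B1-1, in which mitochondrial genes took 71.5% of TPM, and KO MK 1, with Pf4 at 43254.3 TPM and Ppbp at 15643.4 TPM. Among NMK cells with both genes above 0 the ratio spread widely in both genotypes, from 0.00165 to 1.10 in 5 WT cells and from 0.00164 to 0.809 in 10 KO cells.

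**Figure D4:**
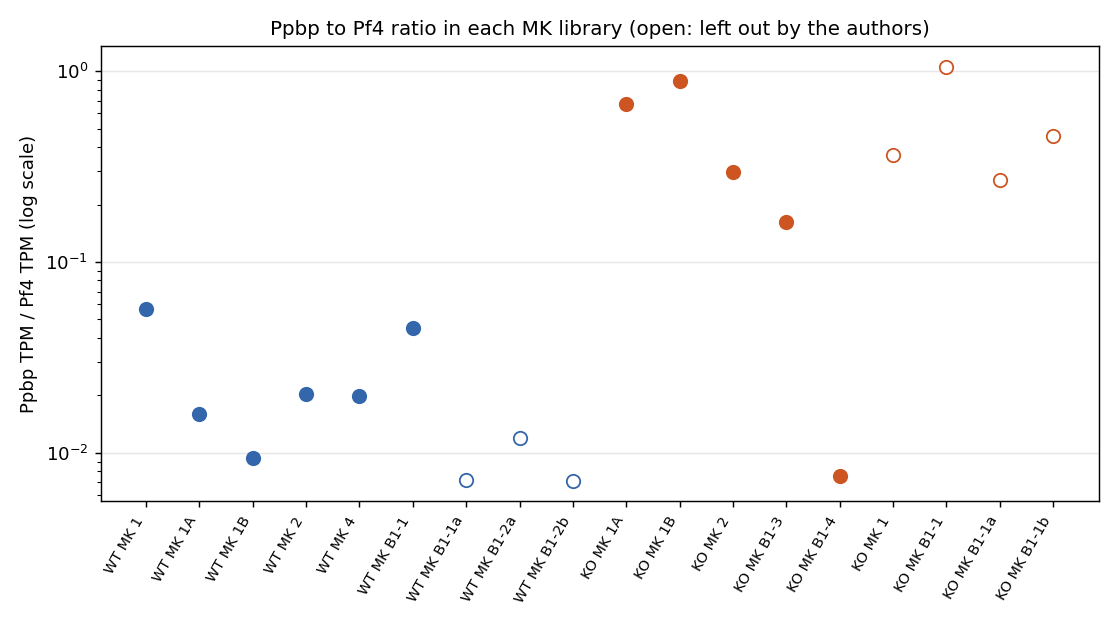
Each point is the Ppbp to Pf4 ratio of TPM in 1 MK library on a log axis, WT in blue and KO in orange; filled points are libraries the authors kept and open points are those they left out. The kept WT MK cells sit between 0.00945 and 0.0568, and every KO MK library except B1-4 lies above them.

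Other CXC chemokine genes flank the pair: Cxcl5 ends 6893 bp before Ppbp, and Cxcl3 starts 12719 bp after Pf4. Both encode chemokines that attract neutrophils. Cxcl5 ran from 11.7 to 62.5 TPM in WT MK cells and reached at most 1.0 TPM in WT NMK cells. Among KO MK cells it was 374.0 TPM in 1B, 222.9 in 1A and 211.4 in B1-3, and it was listed at 0 in 2 and B1-4. Cxcl3 was at 0.4 to 7.8 TPM in WT MK cells and at 27.6, 22.6 and 21.8 TPM in KO MK 1B, B1-3 and 1A, against 0 in 2 and 0.1 TPM in B1-4. The same 3 KO MK cells thus lay above every WT MK cell for Ppbp and for both flanking genes, while only 1B did so for Pf4. Of 11796 genes, 23.9% had 3 or more KO MK cells above every WT MK cell. Of 9 CXC chemokine genes listed as near the pair, 3 passed the 1 TPM limit in WT cells. All 3 were at least 2-fold higher in WT MK cells, against 37.4% of 11562 genes. Between KO and WT MK cells 4 passed, of which 1 was at least 2-fold higher in KO, against 12.4% of 11796 genes.

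**Figure D5:**
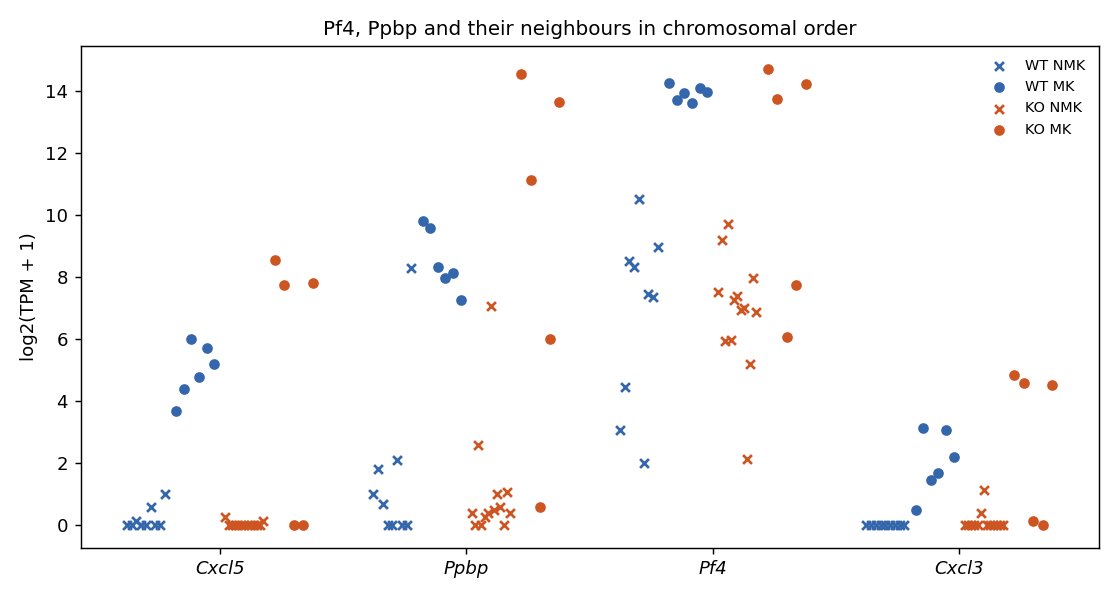
Points give log2(TPM + 1) of Cxcl5, Ppbp, Pf4 and Cxcl3, in their order along the chromosome, in each kept cell; circles are MK and crosses NMK cells, WT in blue and KO in orange. The 3 highest KO MK cells lie above all WT MK cells for Cxcl5, Ppbp and Cxcl3 but mix with them for Pf4.

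Among adhesive and matrix proteins, Thbs1, Vwf and Sparc behaved differently. Thbs1 encodes thrombospondin-1, a large adhesive glycoprotein that activates latent TGF-beta (chromosome 2, 118111876 to 118127133, plus strand). It was listed at 0 in all 9 WT NMK cells and ran from 0.4 to 9.3 TPM in WT MK cells, with a median of 4.95 TPM. In KO MK cells it was 888.1 TPM in 1B, 314.4 in 1A and 233.7 in B1-3, and listed at 0 in 2 and B1-4. The 3 high cells lay far above all WT MK cells. The mean was 287 TPM in KO MK and 4.75 TPM in WT MK cells, 60.5 times higher, and the log2 difference was 2.98 (pooled SD 3.30). Among KO NMK cells only B1-1b, 1 of the 2 libraries of low housekeeping score, was above 0, at 0.2 TPM.

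Vwf encodes von Willebrand factor, which tethers platelets to damaged vessel walls and is made by megakaryocytes and endothelial cells (chromosome 6, 125546774 to 125686679, plus strand). WT MK cells ran from 3.7 to 8.3 TPM, all above WT NMK cells at 0 to 2.1 TPM, a log2 difference of 2.09 (pooled SD 0.51). KO MK 1B was at 36.2, 1A at 16.9 and B1-3 at 15.4 TPM, above every WT MK cell, and 2 and B1-4 were listed at 0. The group difference was 0.08 (pooled SD 1.68). Endothelial markers summed to 2.2 to 15.4 TPM in WT MK and 0 to 25.9 TPM in KO MK cells, with Cdh5 and Stab2 at 0 in all 4 groups.

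Sparc encodes osteonectin, a matrix protein (chromosome 11, 55394500 to 55423183, minus strand). It was above 0 in 3 kept cells only, at 0.4 TPM in WT MK 1A, 0.1 in WT NMK 3A and 0.1 in 1 KO NMK cell. No kept cell reached 1 TPM, which in KO MK allows a share of cells of up to 52.2% (exact Clopper-Pearson 95% interval, 0 of 5 cells). Stromal markers were also low, summing to 0.7 to 5.7 TPM in WT MK and 0 to 1.8 TPM in KO MK cells, with Col3a1 at 0 in all 4 groups.

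F13a1 and F5 encode coagulation factors. F13a1 is the transglutaminase subunit of factor XIII, which cross-links fibrin (chromosome 13, 36867178 to 37050244, minus strand). In WT MK cells it was 0 to 0.8 TPM and in WT NMK cells 0 throughout. In KO MK cells it was 349.5 TPM in 1B, 6.6 in 1A, 3.0 in B1-3 and 0 in 2 and B1-4. Its mean of 71.8 TPM in KO MK cells therefore comes almost wholly from KO MK 1B. The log2 difference from WT MK was 2.38 (pooled SD 2.33), and it was 0.94 without KO MK 1B. In KO NMK cells, B1-3b was at 37.0 and B1-5 at 2.7 TPM. Monocytes and macrophages also make F13a1, and the 10 monocyte and macrophage markers summed to 274.2 to 2049.4 TPM in KO MK and 104.9 to 271.5 TPM in WT MK cells, with 1 to 3 of the 10 at 1 TPM or more in each MK cell and C1qa and C1qc at 0 in all KO MK cells. Nearly all of each sum was Lyz2, with 733.7 of 733.8 TPM in KO MK 1B and 1992.3 of 2049.4 TPM in KO MK 2, where F13a1 was 0. Lyz2 reached 1510.7 TPM in WT NMK cells, in which F13a1 was 0 throughout. The part of these markers in the F13a1 values was not tested.

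F5 is coagulation factor V, the cofactor of factor Xa (chromosome 1, 164151838 to 164220277, plus strand). It ran from 0.7 to 9.1 TPM in WT MK cells with a median of 4.7 TPM. WT NMK 4B, the cell that was also high for Ppbp, was at 16.8 TPM and lay above all WT MK cells. The 5 KO MK values of F5 were 129.7 TPM in 1B, 74.8 in 1A, 56.4 in B1-3, 1.6 in 2 and 0 in B1-4. The first 3 exceeded every WT MK cell, and the mean was 52.5 against 4.85 TPM, 10.8 times higher, with a log2 difference of 1.77 (pooled SD 2.23). KO NMK cells were at 17.5 TPM or less, and KO NMK 1A held the highest value of both Ppbp and F5 in that group.

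Clu, Timp3 and Srgn complete the set. Clu encodes clusterin, a secreted chaperone and complement inhibitor (chromosome 14, 65968483 to 65981547, plus strand). WT MK cells held 45.2 to 113.8 TPM with a median of 80.3 TPM. WT NMK cells fell into 5 cells at 0 and 4 cells at 15.1 to 61.2 TPM. KO MK 1B was at 1043.5, 1A at 467.0, B1-3 at 459.5, 2 at 9.2 and B1-4 at 0 TPM, so 3 lay above and 2 below all WT MK cells, and the group difference was -0.07 (pooled SD 2.91). In KO NMK cells Clu was at 1.0 TPM or less in all 13, below the 4 WT NMK cells that had it. The difference between KO and WT NMK cells was -2.17 (pooled SD 1.79). Clu was the only one of the 10 genes past the 2-fold limit between NMK cells, lower in KO as were 13.3% of 12835 genes. None was higher, against 12.8% of genes, and the median difference was 0.01 against 0.20. Without the 2 libraries of low housekeeping score the Clu difference was -2.23.

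Timp3 encodes an inhibitor of matrix metalloproteinases (chromosome 10, 86300372 to 86349506, plus strand). Its span lies inside that of Syn3 on the opposite strand, which was at 0.6 TPM or less in every kept cell. Timp3 ran from 68.7 to 200.4 TPM in WT MK cells and from 0 to 5.8 TPM in WT NMK cells, a log2 difference of 6.65 (pooled SD 0.81). KO MK B1-3 was highest at 835.4 TPM, 1B was at 259.9, 1A at 169.3 and 2 and B1-4 at 0.1 each. Timp3 thus did not follow the order of Ppbp and Thbs1 among the 3 high cells, and 1A lay within the WT MK range. In KO NMK cells only B1-3b at 48.2 and 5B at 6.4 TPM were above 0.

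Srgn encodes serglycin, the proteoglycan core that binds Pf4 and other basic proteins in granules and is made by many blood cells (chromosome 10, 62493833 to 62527451, minus strand). It did not separate any pair of groups. Levels were 180.1 to 488.3 TPM in WT MK, 78.7 to 565.5 in WT NMK, 277.3 to 449.4 in KO MK and 0 to 441.6 TPM in KO NMK cells. All 5 KO MK cells lay within the WT MK range, those with low Pf4 included. The top of that range was WT MK B1-1 alone. The other WT MK cells were at 180.1 to 230.0 TPM, below every KO MK cell. The group difference between KO MK and WT MK was 0.66 (pooled SD 0.46), larger than the spread between cells. The 0 came from KO NMK B1-2a, a library of low housekeeping score, and the other such library, B1-1b, was at 3.1 TPM. Both enter the difference between KO MK and KO NMK of 1.39 (pooled SD 2.39).

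Ratios to Pf4 were also computed for the other genes. Per 1000 TPM of Pf4, Clu was at 3.61 to 6.56 TPM in the 6 WT MK cells and at 24.7 to 43.1 TPM in the 4 KO MK cells in which it was above 0. F5 was at 0.0443 to 0.524 TPM in WT and 3.95 to 7.49 TPM in 4 KO MK cells. Thbs1 was at 16.6 to 33.0 TPM in 3 KO MK cells and at no more than 0.589 TPM in WT. For Vwf the 3 KO MK cells held 0.893 to 1.35 TPM and WT cells 0.234 to 0.478 TPM. In each of these genes no KO MK cell with the gene above 0 overlapped a WT MK cell. This was partly set by the choice of cells. KO MK B1-4 was left out for each of them, and KO MK 2 also for Thbs1 and Vwf, because the gene was at 0. The share of all genes without such overlap was not computed, so no conclusion is drawn from it. The mean log2 ratio to Pf4 was higher in KO by 2.79 for Clu (pooled SD 0.33), 1.77 for Vwf (pooled SD 0.33), 4.38 for F5 (pooled SD 1.08) and 6.73 for Thbs1 (pooled SD 1.63). For F13a1, above 0 in 3 KO and 3 WT MK cells, it was higher by 5.33 (pooled SD 2.52), also without overlap. Timp3 gave a difference of -0.72 (pooled SD 1.86) and Srgn one of 3.30 (pooled SD 2.82), and the ranges of both overlapped. Cells in which a gene is at 0 are missing from these ratios, and all ratios share Pf4.

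A list of 27 other alpha-granule cargo genes made by megakaryocytes was examined in the same way. In WT cells 17 of them passed the same 1 TPM limit, and of these 10 were at least 2-fold higher and 2 lower in MK cells, against 37.4% and 5.22% of all genes. Between KO and WT MK cells 19 passed, of which 4 were higher and 4 lower, against 12.4% and 9.27% of all genes, with a median difference of 0.28 against 0.09. Serpine2, the protease inhibitor nexin-1, ran from 285.4 to 1210.1 TPM in WT MK cells. In KO MK it was 567.4 TPM in B1-3, 305.6 in 1B, 77.2 in B1-4, 33.7 in 2 and 27.9 in 1A. Here 1A, high for Ppbp and Thbs1, was the lowest, and the group difference was -2.18 (pooled SD 1.40). Selp encodes P-selectin, the granule membrane receptor for leukocytes, and was at 9.5 to 141.5 TPM in WT MK cells. In KO MK it was 373.6 TPM in 1B, 226.9 in 1A, 133.4 in B1-3, 33.1 in B1-4 and 0.3 in 2, so 2 cells lay above the WT MK range, and the group difference was -0.03 (pooled SD 2.45). Pros1 encodes protein S, an anticoagulant cofactor, and was 1.08 higher in KO MK on the log2 scale (pooled SD 1.57). Gas6, a ligand of TAM receptors, was at 0 to 6.2 TPM in WT MK and 2.7 to 34.6 TPM in KO MK cells, a difference of 2.68 (pooled SD 1.13). Between WT MK and WT NMK cells its difference was -2.5 (pooled SD 2.21).

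Cargo that platelets take up from plasma, 7 genes including albumin and the fibrinogen chains, reached no mean of 1 TPM in any group and summed to at most 4.9 TPM in any kept cell. Of 4 genes needed to form alpha granules, 3 were at least 2-fold higher in KO than in WT MK cells, against 12.4% of 11796 genes. Vps33b, a vesicle trafficking protein, was at 40.0 to 112.0 TPM in KO MK and 7.7 to 80.7 TPM in WT MK cells, a difference of 2.14 (pooled SD 1.04). Gfi1b, a repressor of transcription, was at 42.7 to 234.3 TPM in KO MK and 20.9 to 75.3 TPM in WT MK cells. In KO MK 2 and B1-4, Vps33b was at 40.0 and 43.2 TPM and Gfi1b at 42.7 and 130.9 TPM.

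Over all 33 kept libraries, the 5 genes most like Pf4 by Spearman rank correlation of log2(TPM + 1), among 6043 genes considered, were Proser2 (rho 0.81), the serotonin transporter Slc6a4 (0.80), the brain-type creatine kinase Ckb (0.78), Cdc42ep5 (0.77) and Mir8116 (0.77). Mir8116 may share reads with a host transcript and is uncertain. Genes entered only if at least 1 group averaged 10 TPM, with predicted and ribosomal genes left out. Proser2, Slc6a4, Ckb and Cdc42ep5 averaged 24.5, 34.5, 49.7 and 47.7 TPM in KO MK cells. Their means in WT MK cells were 4.3, 5.3, 3.1 and 7.8 TPM, whereas Pf4 had its higher mean in WT MK. These 4 genes were at 0.4 TPM or less in all NMK cells, mostly at 0. The list is thus shaped by that limit and by ties at 0. Of the cargo genes, Thbs1 was nearest with a rho of 0.70, followed by Vwf at 0.69, Clu at 0.65 and Timp3 at 0.58. Ppbp and F5 were at 0.50, F13a1 at 0.49 and Srgn at 0.01. These correlations run across cells of 4 groups that differ in Pf4, share the TPM scaling and are given as a description.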

How the data were processed

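The authors deposited TPM values rounded to 1 decimal for single-cell SMART-Seq libraries. One table held 46 libraries and the other, used as the main one, the 33 left after outliers were removed. The submitters' processing notes name STAR 2.6.1e, featureCounts 1.6.2, FastQC 0.11.7 and cutadapt 1.9.1, and the build mm10. Not given in the sources used here are the annotation, strand setting, step to TPM and outlier rule. Reads of genes overlapping on opposite strands cannot be told apart. Not analysed here were 44 of 90 labelled samples, and 1 column with no matching sample was not used.

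Depth is unknown, and a few abundant transcripts lower all others. A pseudocount of 1 was added before taking log2, which understates changes of low genes. Shares of cells have exact Clopper-Pearson 95% intervals, for counting error only. No doublet caller was run. The 10 genes and 13 lists were chosen with earlier results of these data known. From each other list up to 4 genes were eligible for naming, those with the largest WT MK against NMK or KO against WT MK difference at a mean of 10 TPM or more; the ones given are a subset. Ly6a, Runx1 and Syn3 serve as checks. Alternatives were the full table, pseudocounts of 0.1 and 10, means of TPM, medians, other filters, title prefixes and each cell left out. Python 3.11.15 with scipy 1.17.1, pandas 2.3.3, numpy 2.4.6 and matplotlib 3.10.9 was used, and the code was tested on simulated data.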

Additional observations from a re-analysis of the deposited data

Results flagged for a closer look

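In all, 32 sets of values were examined, each from 1 group of 4 to 10 cells. A set held 1 gene, the cargo share of total TPM or, in MK cells, the Ppbp to Pf4 ratio. In 7 sets a cell stood apart from the rest of its group by Dixon's criterion. Chance meets it in about 1 of 20 sets of normally distributed values. Several of these sets are mostly zeros, so that rate cannot be applied to them. In WT NMK cells, 4B stood apart for Ppbp at 313.8 TPM and for F5 at 16.8 TPM, cell 2 for Timp3 at 5.8 TPM and, on the low side, for Srgn at 78.7 TPM, and 3A for Sparc at 0.1 TPM. In WT MK cells, B1-1 stood apart for Srgn at 488.3 TPM and 1A for Sparc at 0.4 TPM. In both Sparc sets the flagged cell was the only 1 above 0, so it stood apart by construction. The 13 KO NMK cells were too many for this criterion.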

How the results depend on the processing

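The main limits are 1 sample per group, unknown depth and the split among KO MK cells. No paired analysis was possible because no test was run and replicate numbers only name cells. The log2 ratio of Ppbp to Pf4 (3.0) moved by less than the spread between cells under each alternative run for it. With each cell left out it was 2.43 to 4.15. The ratio was not compared within the title prefix B1. There the kept ratios were 0.161 in KO MK B1-3, 0.0076 in KO MK B1-4 and, between these, 0.045 in WT MK B1-1. The median cargo difference between WT MK and NMK cells (2.15) was 1.32 in the full table, 4.44 and 0.53 with pseudocounts of 0.1 and 10, and 6.65 with a minimum mean of 10 TPM; the 7 higher genes became 4 with a pseudocount of 10 or that minimum. With it the NMK difference between genotypes (0.01) was -0.72. Medians over cells gave 6.30 for KO MK against NMK (3.83). The 3 genes higher in KO than WT MK became 6 in the full table, by means of TPM or by medians, 5 without the title prefix B1, and 2 to 5 with each cell left out (5 without KO MK B1-4). The count of 6 genes with 3 KO MK cells above WT became 1 without the prefix. That gene was Srgn, so none of the 6 remained. This was set in advance: the KO MK cells left were 1B, 1A and 2, and KO MK 2 lay above WT for none of the 6. With the prefix the count was 0, since fewer than 3 KO MK cells were left. It was 0 to 7 with each cell left out, and 0 without 1B, B1-3 or 1A because only 3 cells lay above. The WT MK cargo share (1.67%) was 1.01% in the full table and 0.0927% without Pf4. Srgn between KO and WT MK (0.66) reversed to -0.49 within the prefix. The only kept WT MK library there was B1-1, which stood apart for Srgn at 488.3 TPM. Unless a construction is named, the cause was not tested. Of the other values of single genes, 382 moved by less than the spread between cells and 44 by more.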
